A study of Mus musculus with 4 samples.

Results

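BMP and GDF ligands and their receptors were examined in ureters of mouse embryos with conditional alleles of 2 FGF receptor genes, Fgfr1 and Fgfr2. The set held 10 genes, 6 ligands (Bmp2, Bmp4, Bmp5, Bmp7, Gdf5 and Gdf10) and 4 receptors (Bmpr1a, Bmpr1b, Bmpr2 and Acvr1), out of 19365 genes tested. Its probes were those whose gene name in the scanner files was one of these symbols, which gave 15 of 39429 probes. Of the 15 probes 13 passed the filter on dim signals, and every one of the 10 genes had at least 1 of them.

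The study compared ureters dissected from E14.5 embryos of the NMRI strain on 4 two-colour arrays. Each array carried RNA of 1 mutant and 1 control extract. Mutants (cDKO) carried Tbx18(cre/+) together with Fgfr1(fl/fl) and Fgfr2(fl/fl), so that recombination was directed to cells with Tbx18 activity, which in the ureter are those of the outer mesenchyme and their descendants. Controls were Fgfr1(fl/?) and Fgfr2(fl/?), with no cre allele given and 1 allele of each receptor gene left unspecified. The floxed alleles were therefore shared by both groups. The labels gave both extracts of an array the same sex, female on replicates 1 and 4 and male on replicates 2 and 3. They named no embryos or pools, so the spread between the 4 pairs of extracts may be technical. Each p-value rests on that spread after a dye term, with limma drawing each gene's variance towards that of all genes.

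BMPs and GDFs are secreted dimers of the TGF-beta superfamily that are cut from larger precursors and signal through pairs of type I and type II serine-threonine kinase receptors. The type II receptor phosphorylates the type I receptor, which in turn phosphorylates SMAD1, SMAD5 and SMAD9, and these enter the nucleus with SMAD4 and switch on genes such as the Id family. In the developing ureter BMP4 from the mesenchyme is needed for the smooth muscle coat and acts on the urothelium as well.

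The arrays had between 66.1% and 71.8% of spots well above background in the cDKO channel and between 64.9% and 72.6% in the control channel, with no saturated spot. Replicates 1 and 2 were on slide 1 and replicates 3 and 4 on slide 2, and each slide had its own scan on its own scanner, as the file headers give them. Across all genes the log2 ratios of 2 arrays correlated between 0.0056 (replicates 2 and 3) and 0.51 (replicates 1 and 2). Of the targeted genes, all 3 kept Fgfr1 probes had ratios below 0 (-0.54 to -0.032) and both kept Fgfr2 probes had ratios above 0 (0.56 and 0.59). Fgfr2 thus went against the direction of a deletion, with a limma adjusted p of 0.0356 at the gene level. With p adjusted over all probes, limma called 1 of the 3 Fgfr1 probes (-0.54, adjusted p = 0.0406). It called 1 of the 2 Fgfr2 probes (0.59, adjusted p = 0.0387). Where the floxed segments lie relative to these probes was not analysed here, so the probes do not check the deletion, and cDKO and control stand for what the extracts were labelled. All 8 ureteric mesenchyme and all 9 urothelium markers were measured. The mesenchyme markers had summed linear intensities of 119441 to 159206 in cDKO and 87650 to 139541 in control extracts. Erythroid markers had 7 of 7 ratios below 0 (median -0.33, 2 called), endothelial markers 5 of 6 (median -0.35, 1 called) and macrophage markers 5 of 6 (median -0.21, 1 called). Urothelium markers had 6 of 9 below 0 (median -0.030, 1 called), mesothelium markers 3 of 4 (median -0.35, 1 called) and neuronal and glial markers 5 of 5 (median -0.20, 0 called by limma, 2 at an unadjusted p under 0.05). Smooth muscle markers had 6 of 7 ratios above 0 (median 0.048), and kidney and nephron progenitor markers 5 of 5 (median 0.12). Skeletal muscle markers had 4 of 4 above 0 (median 0.12) and gonad and adrenal markers 2 of 3 (median 0.11). Limma called 0 genes in each of these lists. At an unadjusted p under 0.05 it had 2 smooth muscle markers above 0 and 1 below, and 1 kidney marker above. The part of these cell types in the ratios of the ligands and receptors was not tested.

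Ratios are given as log2 of cDKO over control, with the standard error of limma's fit over the 4 arrays, and levels as normalised log2 intensity in each channel. A gene is called at a Benjamini-Hochberg adjusted p under 0.05 over all 19365 genes. By this rule 1 of the 10 genes was called, Gdf5, which was higher in the cDKO. Over all genes tested 0.852% were called, and 0.553% were called higher. In this set 8 ratios lay above 0 and 2 below, with a median of 0.26, whereas over all genes 10196 lay above and 9169 below with a median of 0.0086. The ratio had the same sign on all 4 arrays for 6 of the 10 genes, against 25.2% of all genes. With 4 arrays an exact sign-flip permutation test of a single gene cannot give a two-sided p below 0.125, which those 6 genes reached.

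**Figure D1:**
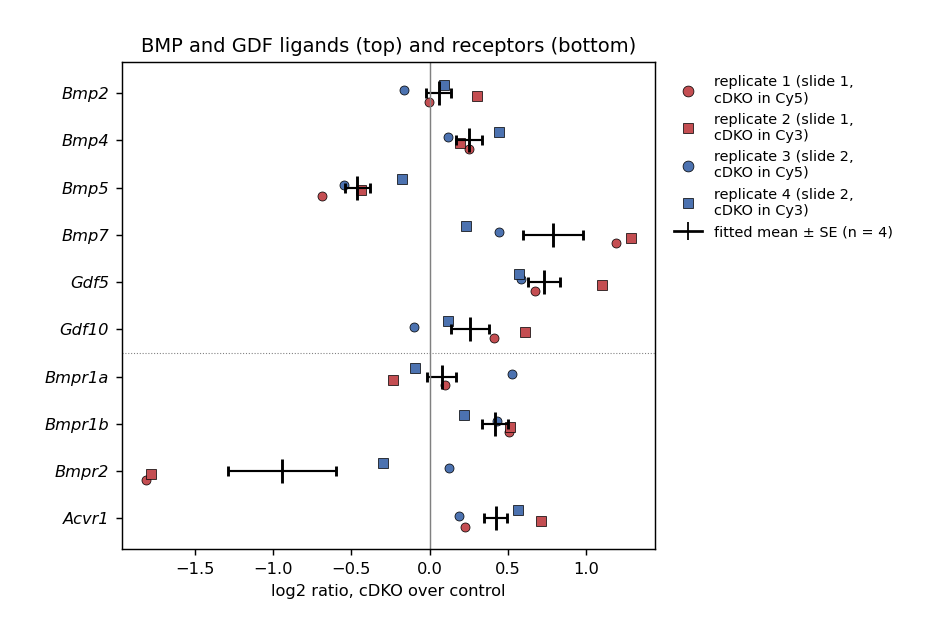
Log2 ratio of cDKO over control (horizontal axis) for each ligand and receptor gene (vertical axis). Circles and squares are single arrays coloured by slide, and crosses give the fitted mean ± SE over 4 arrays. Gdf5 lies between 0.57 and 1.10 on all arrays, while Bmpr2 splits into -1.81 and -1.78 on slide 1 and 0.12 and -0.30 on slide 2.

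Among the ligands, Gdf5, known for its part in joint and limb cartilage formation, was the only gene called. Bmp4 and Bmp7 were also above 0 on all 4 arrays but were not called. The Gdf5 level in control extracts was 9.45, 9.19, 8.94 and 8.84 on replicates 1 to 4, and in cDKO extracts 10.12, 10.29, 9.52 and 9.41. Within each array the cDKO extract was higher, although the ranges of the groups overlapped slightly because both groups were lower on slide 2. The ratios were 0.67, 1.10, 0.58 and 0.57, with a mean of 0.73 ± 0.10 (SE, n = 4, limma adjusted p = 0.0425), which is 1.66-fold. The 95% interval of this ratio, unadjusted for the number of genes, ran from 0.48 to 0.98. The call was lost without replicate 1 (0.71, adjusted p = 0.135) and without replicate 2 (0.60, adjusted p = 0.0655). It held on slide 1 alone (0.88, adjusted p = 0.0280) and not on slide 2 alone (0.58, adjusted p = 0.374). Fits of 1 slide had 2 arrays, no dye term and 1 residual degree of freedom. Their residual held the dye and sex differences, unlike that of the fit to 4 arrays. The difference between the slides was not called (-0.31, adjusted p = 0.418).

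Gdf5 was read by a pair of kept probes that did not give the same ratio. The probe behind the call lies at chr2:155766801-155766860 (mm9, minus strand), from base 2215 of the transcript as the scanner files number it. The other lies nearer the 5′ end, at chr2:155768050-155768109 (mm9, minus strand) from base 966, and its ratio was 0.11 ± 0.071 (SE, n = 4, limma adjusted p over all probes = 0.467). Its ratios were 0.065, 0.19, -0.017 and 0.18, so that on every array it fell short of the first probe. Its signal was well above background on 16 of 16 spots in cDKO and 15 of 16 in control channels, with levels from 7.34 to 7.65 in cDKO and from 7.15 to 7.46 in control extracts. The gap of 0.63 between both probes exceeded that of 99.3% of the 4910 genes with several kept probes, whose median gap was 0.11. The probes differed in brightness as well as in position, and the cause of the gap was not tested. The sequence of the probe that showed the smaller ratio, taken from the scanner files, is shown because the call depends on which probe is read:
Gdf5 probe from base 966: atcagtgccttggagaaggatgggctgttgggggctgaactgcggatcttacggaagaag
With the mean of both probes in place of the brighter one, the Gdf5 ratio was 0.42 with an adjusted p of 0.0652. Neither probe was assigned to an exon or an untranslated region, since no annotation of this build was used.

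Cartilage markers were looked at beside Gdf5. Of 4 markers 3 were measured and Matn1 was not kept. Their summed intensity was 8526 to 9713 in cDKO and 7978 to 8166 in control extracts. Col2a1, the main collagen of cartilage, had a ratio of 0.64 ± 0.11 (limma adjusted p = 0.0578) and Acan one of 0.028 ± 0.071, whereas Hapln1 fell (-0.54 ± 0.075, adjusted p = 0.0425). Their part in the Gdf5 result was not tested. In bulk ureter RNA fewer cells of a type and less RNA per cell cannot be told apart.

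Bmp7, a ligand made by the ureteric epithelium among other tissues, had the largest mean ratio above 0 of the 10 genes but was not called. Its control level was 10.11, 10.10, 10.89 and 11.09 on replicates 1 to 4, and its cDKO level was 11.30, 11.38, 11.33 and 11.32. The cDKO extracts were all alike, above every control extract, and the control extracts of slide 1 were lower than those of slide 2. The ratios were 1.19, 1.29, 0.44 and 0.23, with a mean of 0.79 ± 0.19 (SE, n = 4, limma adjusted p = 0.111). The mean was 1.24 on slide 1 and 0.34 on slide 2. The slides differed by -0.90 ± 0.15 (limma adjusted p = 0.0393), a test in which 0.893% of all genes were called. Left to slide 1 alone the adjusted p of Bmp7 was 0.00511, and to slide 2 alone 0.651, each with 2 arrays and no dye term. Beside Bmp7, the 9 urothelium markers had 3 ratios above 0 and 6 below. The uroplakin gene Upk1b fell (-1.43 ± 0.20, limma adjusted p = 0.0401), and Upk3a (-0.91), Upk2 (-0.59) and Upk1a (-0.59) were not called. On replicate 1 Upk2 (0.060) and Upk1a (0.022) were above 0. Shh (0.53), Foxa1 (0.17) and Krt5 (0.12) had mean ratios above 0, and Cdh1 (-0.019) and Trp63 (-0.030) were slightly below, none of them called. The summed intensity of the 9 markers was 36056 to 47652 in cDKO and 39752 to 48121 in control extracts. Kidney and nephron progenitor markers had 5 of 5 mean ratios above 0 (median 0.12, 0 called by limma, 1 at an unadjusted p under 0.05). The part of either marker group in the Bmp7 ratio was not tested. The single Bmp7 probe lies at chr2:172695203-172695262 (mm9, minus strand).

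Bmp4 had levels of 14.43, 14.54, 15.26 and 15.06 in control extracts and 14.68, 14.73, 15.37 and 15.50 in cDKO extracts on replicates 1 to 4. The cDKO extract was the higher on each array, but both groups were higher on slide 2 than on slide 1, so that their ranges overlapped. The ratios of 0.25, 0.20, 0.11 and 0.44 averaged 0.25 ± 0.081 (SE, n = 4, limma adjusted p = 0.173). The rise from slide 1 to slide 2 was 0.67 in control and 0.73 in cDKO extracts, larger than the difference between genotypes. It was at the percentile 98.1 of all genes in control and 99.6 in cDKO extracts. The ureteric mesenchyme markers, which belong to the tissue that makes BMP4, had ratios above 0 in 8 of 8 genes with a median of 0.40, and Ptch1, the hedgehog receptor, was called among them (0.55 ± 0.075, limma adjusted p = 0.0401). Their part in the Bmp4 ratio was not tested.

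The kept Bmp4 probe lies at chr14:47003391-47003450 (mm9, minus strand). A further Bmp4 probe at chr14:47003198-47003257, downstream in the same transcript, was well above background on 0 of its 16 spots in either channel and gave no usable ratio. By distance over the 4 ratios, the genes most like Bmp4 were Hoxd10 (0.052), Zzef1 (0.071) and Scaf11 (0.074). Their mean ratios were 0.26, 0.24 and 0.23, and none of them was called.

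Bmp5, whose loss in mice gives the short ear phenotype, was the ligand with a ratio below 0 on every array. Its control level was 10.81, 10.67, 10.69 and 10.61, and its cDKO level was 10.12, 10.23, 10.14 and 10.43. All control extracts were above all cDKO extracts. The ratios were -0.69, -0.43, -0.55 and -0.17, with a mean of -0.46 ± 0.082 (SE, n = 4), and the limma adjusted p of 0.0642 missed the threshold. Without replicate 4, which had the smallest difference, the mean was -0.53 and the adjusted p 0.0476. Bmp5 was not called without replicate 1 (-0.43, limma adjusted p = 0.277), replicate 2 (-0.40, 0.137) or replicate 3 (-0.50, 0.0962). The probe lies at chr9:75746444-75746503 (mm9, plus strand).

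The genes with the pattern nearest to that of Bmp5 were Oas1f, Rasgrf1 and Hsd17b14, at distances of 0.15, 0.19 and 0.20. Rasgrf1, an exchange factor for RAS proteins, fell with ratios of -0.64, -0.38, -0.68 and -0.29 (mean -0.49, limma adjusted p = 0.0456). Hsd17b14 fell by a similar amount (-0.50, adjusted p = 0.0490). Oas1f had a mean of -0.43 and was not called (adjusted p = 0.0861).

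The upstream windows of Bmp4 and Bmp5 are printed because these ligands had mean ratios on opposite sides of 0. Each holds the 250 bases before the transcription start in RefSeq (GRCm38.p6), at chr14:46390670-46390919 on the minus strand for Bmp4 and chr9:75775115-75775364 on the plus strand for Bmp5, written 5′ to 3′ along the gene:
Bmp4: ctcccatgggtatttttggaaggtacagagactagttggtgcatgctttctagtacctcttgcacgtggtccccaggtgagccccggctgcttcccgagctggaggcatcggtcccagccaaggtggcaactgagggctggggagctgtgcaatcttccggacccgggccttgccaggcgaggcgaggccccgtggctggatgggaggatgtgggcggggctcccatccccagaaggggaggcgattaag
Bmp5: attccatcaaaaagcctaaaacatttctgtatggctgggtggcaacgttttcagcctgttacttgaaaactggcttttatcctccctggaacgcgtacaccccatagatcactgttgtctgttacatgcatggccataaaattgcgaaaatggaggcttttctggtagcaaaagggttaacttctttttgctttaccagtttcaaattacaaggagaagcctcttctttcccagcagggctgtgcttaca
The Bmp4 window has a GC content of 63.2% and that of Bmp5 42.8%. Neither held any of the motifs searched on both strands: GACCACCCA (GLI factors), GTAAACA (forkhead factors), GGCGCC (a GC-rich element bound by SMAD proteins) and TATAAA (the TATA box). These were found in 0.225%, 3.17%, 9.59% and 12.4% of 32851 windows of the same length.

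The remaining ligands were nearer to 0. Bmp2 had control levels of 9.37, 9.24, 9.32 and 9.23 and cDKO levels of 9.36, 9.55, 9.16 and 9.32. Its groups overlapped, the cDKO extract was higher on 2 of 4 arrays, and the ratio was 0.059 ± 0.080 (SE, n = 4, limma adjusted p = 0.735). Its 95% interval, unadjusted for the number of genes, ran from -0.13 to 0.25.

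Gdf10, a relative of BMP3, had control levels of 10.79, 10.63, 11.75 and 11.56 and cDKO levels of 11.20, 11.25, 11.65 and 11.68. The control extracts of slide 1 were the lowest of all, and the groups overlapped on slide 2. The ratios of 0.41, 0.61, -0.10 and 0.12 averaged 0.26 ± 0.12 (SE, n = 4, limma adjusted p = 0.296). The difference of -0.50 between slides had an adjusted p of 0.171. Bmp2 was read at chr2:133388260-133388319 and Gdf10 at chr14:34748161-34748220 (mm9, both plus strand).

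**Figure D2:**
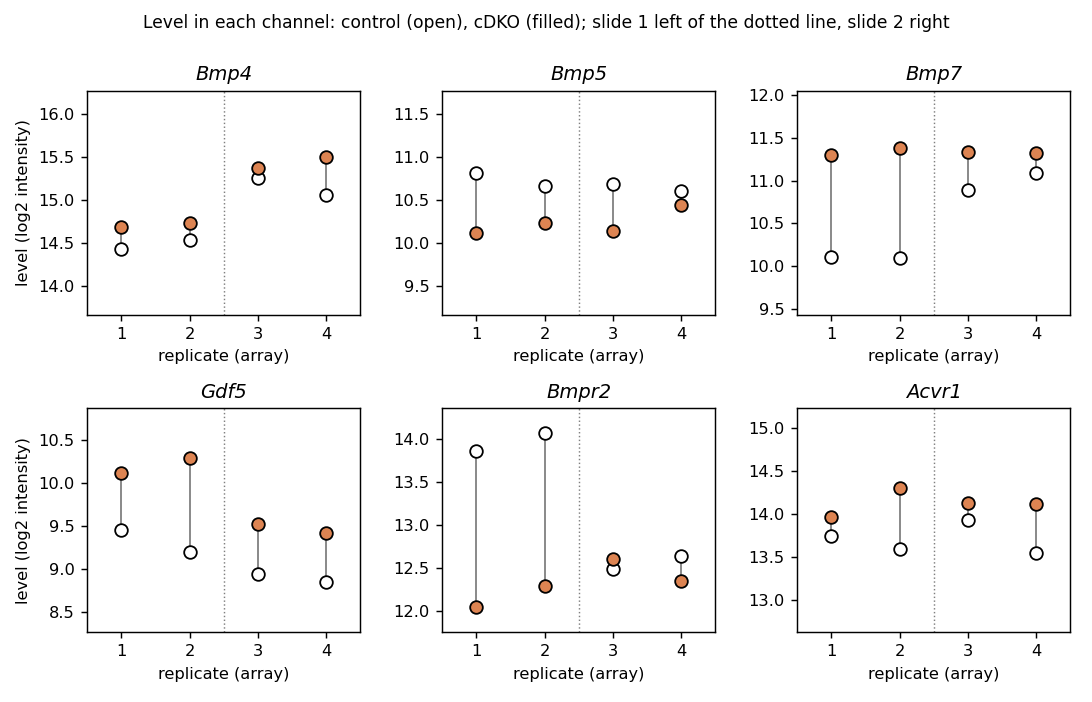
Normalised log2 intensity (vertical axis, with its own range in each panel) of control (open) and cDKO (filled) extracts on each array (horizontal axis) for 6 of the genes. For Bmpr2 the control extracts stand at 13.86 and 14.07 on slide 1 and 12.49 and 12.64 on slide 2, while the cDKO extracts stay between 12.05 and 12.61.

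Of the receptors none was called. At an unadjusted p under 0.05, limma gave 2 receptors above 0 and 1 below, and 19.6% of all genes passed that level in either direction. Acvr1 encodes a type I receptor (ALK2) that takes up BMP7-like ligands. Its control level was 13.74, 13.60, 13.94 and 13.56 and its cDKO level 13.97, 14.31, 14.13 and 14.12. On its brightest probe every cDKO extract was above every control extract. The ratios of 0.23, 0.71, 0.19 and 0.56 averaged 0.42 ± 0.074 (SE, n = 4, limma adjusted p = 0.0627). Replicates 2 and 4, which had the cDKO extract in Cy3, were the higher pair. The dye term of the fit was -0.21 ± 0.074 (limma unadjusted p = 0.0247, adjusted p = 0.518). With no dye term the Acvr1 ratio was 0.42 ± 0.11 (limma adjusted p = 0.114).

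This Acvr1 probe lies at chr2:58298937-58298996 (mm9, minus strand). A dimmer kept probe at chr2:58299580-58299639 gave 0.59, 0.0018, 0.19 and 0.037, with a mean of 0.21 ± 0.089 (limma adjusted p over all probes = 0.280). It was highest on replicate 1, where the brighter probe was low, and the gap of 0.22 between their means exceeded that of 80.8% of genes with several probes. On the dimmer probe the levels of the groups overlapped (cDKO 11.41 to 11.75, control 11.09 to 11.71). A further Acvr1 probe at chr2:58295955-58296014, listed for another transcript, was well above background on 2 arrays in the cDKO channel and 3 in the control channel and was not kept.

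Bmpr1b, the type I receptor (ALK6) that GDF5 binds best, had control levels of 9.06, 8.86, 8.81 and 9.15 and cDKO levels of 9.57, 9.37, 9.24 and 9.37. On this gene's brightest probe the groups did not overlap. The ratios were 0.51, 0.52, 0.43 and 0.22 and averaged 0.42 ± 0.083 (SE, n = 4, limma adjusted p = 0.0779). The probe lies at chr3:141503374-141503433 (mm9, minus strand), and a dimmer one at chr3:141500694-141500753 gave 0.36 ± 0.083 (adjusted p over all probes = 0.111). The dimmer probe had ratios of 0.61, -0.092, 0.71 and 0.21, so the means lay 0.058 from each other while replicate 2 had opposite signs.

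**Figure D3:**
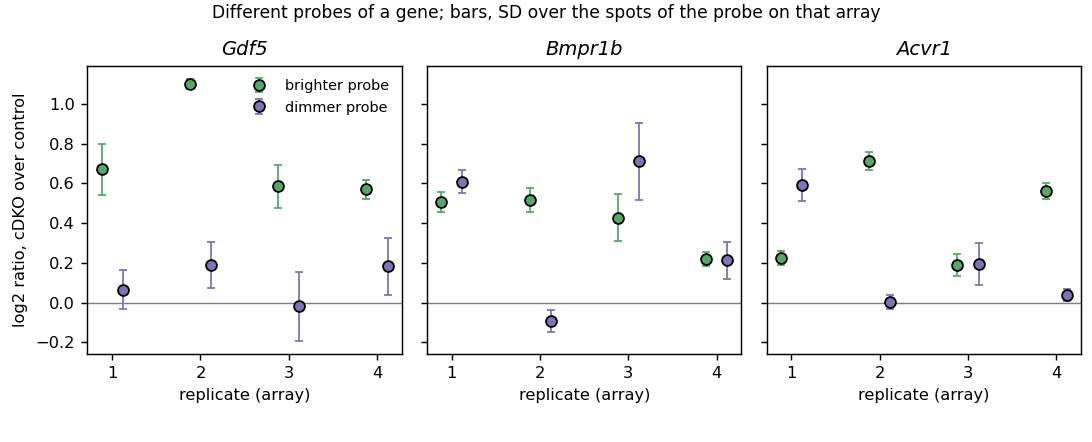
Log2 ratio of cDKO over control (vertical axis) on each array (horizontal axis) for the brighter and the dimmer kept probe of Gdf5, Bmpr1b and Acvr1, with bars for the SD over the spots of that probe on that array. The Gdf5 probes lie apart on every array (mean 0.73 and 0.11), those of Bmpr1b have close means (0.42 and 0.36) and those of Acvr1 differ most on replicates 1, 2 and 4.

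Bmpr1a, the type I receptor ALK3, had control levels of 14.08, 14.19, 13.55 and 13.82 and cDKO levels of 14.18, 13.96, 14.08 and 13.73. The groups overlapped and 2 arrays lay on each side of 0. The mean ratio was 0.076 ± 0.094 (SE, n = 4, limma adjusted p = 0.708), with an unadjusted 95% interval from -0.15 to 0.30. The probe lies at chr14:35224339-35224398 (mm9, minus strand).

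Bmpr2, the type II receptor for most BMPs, had the lowest mean ratio of the 10 genes and the widest spread. Its control level was 13.86, 14.07, 12.49 and 12.64 on replicates 1 to 4, and its cDKO level was 12.05, 12.29, 12.61 and 12.35. The control extracts of slide 1 stood above all the other 6 extracts, which overlapped. The ratios were -1.81, -1.78, 0.12 and -0.30, and the mean of -0.94 ± 0.34 (SE, n = 4) had a limma adjusted p of 0.212. The slides differed by 1.71 ± 0.16 (limma adjusted p = 0.00399), and this difference was number 22 in size among 19365 genes. On slide 1 alone the ratio was -1.79 (adjusted p = 0.00207), and on slide 2 alone -0.087 (adjusted p = 0.947), each without a dye term.

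Slide 2 minus slide 1, the control level of Bmpr2 differed by -1.40, at the percentile 0.132 of the same difference over all genes, and the cDKO level by 0.30, at the percentile 90.8. Sex and dye do not separate these pairs of arrays, since each slide held 1 female and 1 male pair and 1 array of each dye orientation. Slide, scan, scanner and the extracts used on each slide cannot be told apart. Over the 4 spots of the probe the SD of the ratio averaged 0.092 within an array, against an SD of 1.00 between arrays. Bmpr2 had this single probe, at chr1:59927276-59927335 (mm9, plus strand), shown because the result rests on it:
Bmpr2 probe: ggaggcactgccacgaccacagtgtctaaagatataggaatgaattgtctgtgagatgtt
The 250 bases before the Bmpr2 start in RefSeq (GRCm38.p6, chr1:59764029-59764278, plus strand) held 1 GGCGCC, in capitals, as did the window of Bmpr1a among the 9 windows found for 7 of the genes:
Bmpr2: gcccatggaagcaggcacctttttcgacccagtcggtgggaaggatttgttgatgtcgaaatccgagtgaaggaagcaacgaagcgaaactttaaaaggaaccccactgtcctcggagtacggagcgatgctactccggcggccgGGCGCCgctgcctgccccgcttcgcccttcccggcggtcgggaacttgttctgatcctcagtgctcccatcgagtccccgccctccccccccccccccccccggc
TATAAA was found in 1 of the Bmpr1b windows, as overlapping matches on both strands, and GACCACCCA and GTAAACA in 0 of the 9.

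Across the set, on the brightest probe of each gene, the levels of the groups did not overlap for 4 genes. These were Bmp7, Bmpr1b and Acvr1 (higher in the cDKO) and Bmp5 (lower). On the dimmer kept probes of Bmpr1b and Acvr1 they overlapped. Over all genes tested, 8.04% had levels that did not overlap. The mean ratios on slides 1 and 2 were -0.56 and -0.36 for Bmp5, 0.51 and 0.32 for Bmpr1b and 0.47 and 0.38 for Acvr1. With a term for the slide beside genotype and dye, limma called 7 of the 10 genes, Gdf5, Bmp5, Bmp7, Gdf10, Bmpr1b, Bmpr2 and Acvr1, and 12.5% of all genes. That fit leaves 1 residual degree of freedom, and its means are those given above. No difference between female- and male-labelled arrays was called for any of the 10 genes or for any other gene, with limma calling 0 of 19365 genes and 207 (1.07%) having an unadjusted p under 0.05. That test had 2 arrays per sex label, and its 1 residual degree of freedom was the difference between the slides. It therefore cannot exclude a difference between the sexes. For the dye term limma called 0 genes with 1704 (8.8%) at an unadjusted p under 0.05.

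**Figure D4:**
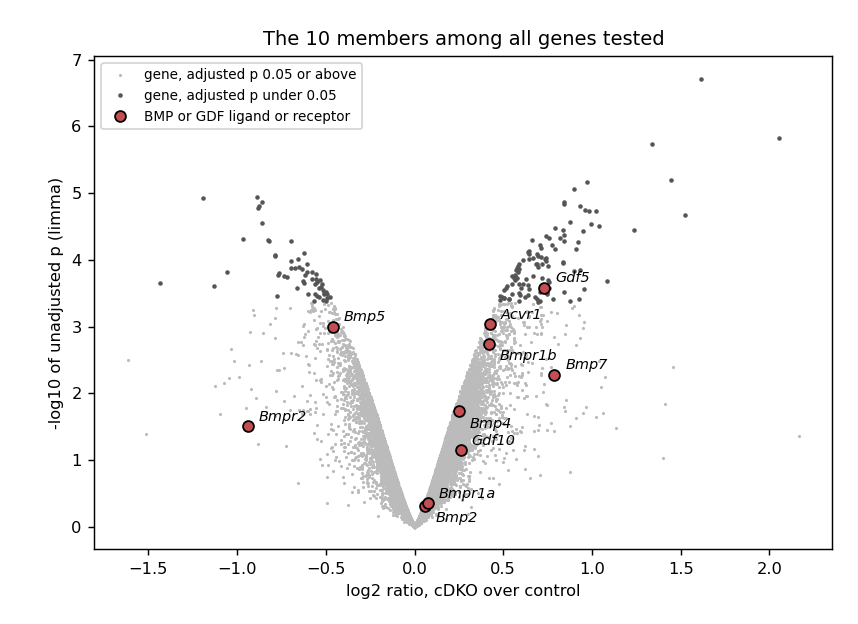
Log2 ratio of cDKO over control (horizontal axis) against -log10 of the unadjusted limma p (vertical axis) for all 19365 genes, with genes at an adjusted p under 0.05 in dark grey and the BMP and GDF genes in red. Gdf5 sits among the called genes, Bmp5, Acvr1 and Bmpr1b just below them, and Bmpr2 and Bmp7 have wide ratios with larger p-values.

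The rest of the pathway was summarised from lists of its other parts. Of 61 such genes 54 were measured, 40 with a ratio above 0 and 14 below (median 0.12), and 1 was called. That gene was Sostdc1, which encodes a secreted BMP and WNT antagonist also known as ectodin. Its ratios were 0.55, 0.36, 0.80 and 0.42, with a mean of 0.53 ± 0.079 (SE, n = 4, limma adjusted p = 0.0482). The cDKO extract was higher on all 4 arrays. Without replicate 1, 2 or 3 limma called 0 genes of these lists, with 7, 15 and 12 of the 54 at an unadjusted p under 0.05. Of all 19365 genes 1642, 2974 and 3302 reached that level in the same fits. Leaving out replicate 4 kept 1 call, with 13 of the 54 and 4517 of all genes at that level.

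Secreted antagonists and modulators had 16 of 17 ratios above 0, with a median of 0.20. Chrdl1, a chordin-like antagonist, had a ratio of 0.42 ± 0.071 and missed the threshold (limma adjusted p = 0.0611). Among the other ligands 11 of 15 were measured, 8 above 0 and 3 below with a median of 0.082. Gdf7 (0.20) and Gdf9 (0.16) had the smallest p of them. Of the other receptors and co-receptors 7 of 9 were measured, 4 above 0 and 3 below with a median of 0.13. The activin type II receptor gene Acvr2b had a ratio of 0.36 ± 0.091 (adjusted p = 0.119) and the co-receptor gene Rgmb one of 0.23 (adjusted p = 0.177).

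The processing proteases that cut BMP precursors had 5 of 5 measured ratios above 0 (median 0.15), with Pcsk6 at 0.35 (limma adjusted p = 0.0953) and Furin at 0.37 (adjusted p = 0.146). The 6 SMAD genes had a median of 0.20. The inhibitory Smad7 had a ratio of 0.41 ± 0.092 (adjusted p = 0.0999) and the receptor-activated Smad9 one of 0.32 (adjusted p = 0.165).

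Of 11 target genes of BMP and SMAD signalling 10 were measured, 3 above 0 and 7 below, with a median of -0.023, and limma called 0, with 1 gene on each side at an unadjusted p under 0.05. These were Smad7, given above, and the homeobox gene Msx2 (-0.28 ± 0.088, adjusted p = 0.169). Id1, Id2 and Id3, the best known readouts of the pathway, had mean ratios of -0.031, 0.017 and -0.015.

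**Figure D5:**
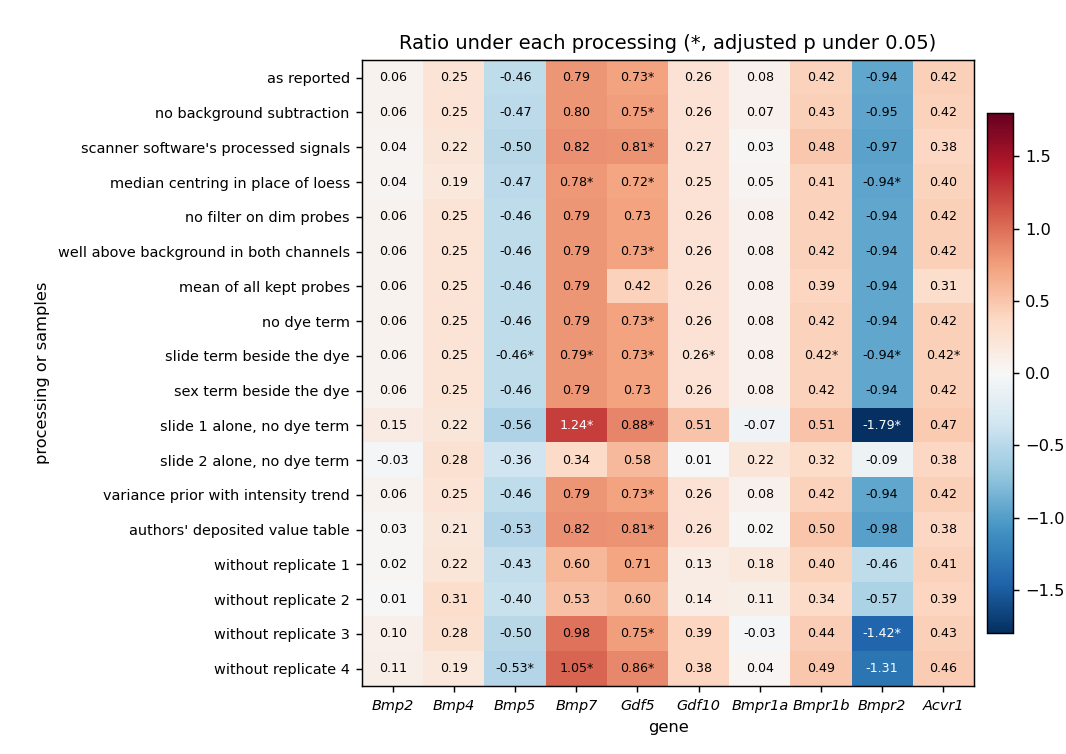
Log2 ratio of cDKO over control for each gene (columns) as reported and under each other processing or choice of arrays (rows), with colour and number giving the ratio and a star an adjusted p under 0.05. Gdf5 lies between 0.42 and 0.88, and rows that change only the filter, the terms or the variance prior repeat its reported ratio by design. The Bmp7 and Bmpr2 ratios move with the slide (1.24 and 0.34, and -1.79 and -0.087).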

How the data were processed

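The members and the gene lists were chosen with earlier results of these data known. RNA (150 ng of total RNA per extract) was labelled with Cy3 or Cy5, per the labels' protocols. Agilent Feature Extraction 10.7.3.1 read the scans, per the file headers and the submitters' processing notes. Mean spot and median background intensity were deposited as scanned, not normalized. The deposited processed intensity, which that software had corrected for background and dye, was used as an alternative. Its log10 ratio of red over green was also deposited and matched the ratio of the processed signals within 0.01 on the log2 scale for 86.1% of spots. So was the authors' deposited value table, a signed fold (ratio) per probe with a median of 1 on each array. Its sign follows cDKO over control, as its correlation with red over green was 0.945, -0.935, 0.909 and -0.910 on replicates 1 to 4. Its scale and centring are not given here, and 10624 to 11152 probes per array stand at exactly 1.

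Intensities were background corrected (normexp, offset 50) and normalized by loess (span 0.3) within each array, with control and marked spots given no weight. The sign of each ratio came from the dye labels (cDKO in Cy5 on replicates 1 and 3). Each probe's value is the mean of its spots. Probes entered with 3 or more of 4 spots marked well above background by the scanner software, on every array, in the cDKO or in the control channel (25591 of 39429 probes, 64.9%). The brightest kept probe stood for a gene. Levels were scaled between arrays by Aquantile. The arrays' number, and not a count, limits the precision. Probes were named by accession (28328), symbol (3400), synonym (243) or the name in the file (7458).

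Genotype and dye terms were fitted in limma 3.58.1 (R 4.3.3), with 2 residual and 4.53 prior degrees of freedom, and p-values were adjusted over all genes. The scripts were tested on simulated data. Named were all members, the 3 genes nearest to Bmp4 and to Bmp5 by Euclidean distance over the 4 ratios, and in each other list the called genes and the 2 with the smallest p. Id1 to Id3, Col2a1, Acan and the urothelium markers were named in addition, after their values were seen. Coordinates are mm9, per the file headers. Promoter windows are from RefSeq (GRCm38.p6) and were found for 7 of 10 genes. Alternatives changed the background correction, normalization, filter, probe rule, terms and arrays.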

Additional observations from a re-analysis of the deposited data

Results flagged for a closer look

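The cDKO effect on 2 genes differed between the slides by limma's test of the difference, adjusted over all genes. For Bmpr2 the ratio on slide 2 minus that on slide 1 was 1.71 (adjusted p = 0.00399), and for Bmp7 it was -0.90 (adjusted p = 0.0393). For both genes the control level differed more between slides, by -1.40 for Bmpr2 and 0.89 for Bmp7, than the cDKO level, which differed by 0.30 and -0.014. The Bmpr2 difference missed the threshold with no filter on dim probes (adjusted p = 0.0924). The Bmp7 difference missed it there (0.150), with the processed signals (0.0873) and with median centring (1.00). Dixon's test for a single outlying array (95% critical value for 4 values) marked 0 of 39 sets of ratios and channel levels of the kept probes. It cannot mark a split of 2 arrays against 2, such as that of Bmpr2.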

How the results depend on the processing

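With the background left in, 194 genes were called in place of 165, and 214 with the processed signals and 214 with the values the authors deposited. The count of all genes moved further with median centring (255), no dye term (258), an intensity trend (272), slide 1 alone (551), a slide term (2418), a sex term (2), no filter on dim probes (1) and slide 2 alone (0, with 1346 at an unadjusted p under 0.05 in limma). Leaving out 1 replicate gave 34 to 403. Among the members, limma called 3 with median centring, 3 on slide 1 and 7 with a slide term. It called 0 with no filter, the mean of kept probes, a sex term or slide 2 alone, with 6, 7, 7 and 5 of 10 at an unadjusted p under 0.05. Over all genes those settings had 4836 of 29875, and 3768, 2689 and 1346 of 19365, at that level. Leaving out 1 replicate gave 0 to 3 members. Where none was called (without replicate 1 or 2), 5 and 6 had an unadjusted p under 0.05, as had 1642 and 2974 of all 19365 genes. Of the other BMP genes 3 were called with the processed signals, 3 with the authors' deposited values, 2 with a trend and 12 with a slide term. None (0) was called with median centring, no filter, a sex term, slide 1 or slide 2 alone. There 7, 20, 14, 9 and 6 of 54 (61 with no filter) had an unadjusted p under 0.05. Over all genes 1288, 4836, 2689, 3884 and 1346 had one. Leaving out 1 replicate gave 0 to 1 called among the other BMP genes. Differences between sex labels were called for 1 gene with the processed signals and 1 with median centring, and differences between slides for 17 with median centring and 6 with no filter. The cause of these moves was not tested, but median centring gave 1 common variance for all genes, and no filter tested 29875 genes.

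The ratio of Gdf5 ran from 0.42 to 0.88 over the 17 alternatives (adjusted p 0.0014 to 0.374). Those that changed only the filter, the terms or the variance prior used the same probe and balanced arrays. They could not move the ratio from 0.73. None read the dimmer probe alone, whose mean ratio was 0.11. The Gdf5 call was lost with no filter (0.115), the mean of both probes (0.0652), a sex term (0.0975), slide 2 alone (0.374), and without replicate 1 or 2. The slide term, which removes slide-to-slide differences from the residual and leaves 1 degree of freedom, called Bmp5 (0.00579), Bmp7 (0.000746), Gdf10 (0.0453), Bmpr1b (0.0093), Bmpr2 (0.000534) and Acvr1 (0.00802) beside Gdf5 (0.0014). Median centring called Bmp7 (0.00247) and Bmpr2 (5.9e-05). Bmp7 was called without replicate 4 (1.05, 0.0358) and Bmpr2 without replicate 3 (-1.42, 0.0441). The mean of Bmpr2 without each replicate ran from -1.42 to -0.46, and that of Bmp7 from 0.53 to 1.05. The sign turned for Bmp2 on slide 2 (-0.033) and for Bmpr1a on slide 1 (-0.066) and without replicate 3 (-0.031, with 0.18 without replicate 1 as the highest). Bmp4 was called under none of the 17 alternatives (0.19 to 0.31). Its ratio, too, was fixed wherever only the filter, the terms or the variance prior changed.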
